A study of Mus musculus with 10 samples.

Results

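The regions described here are the NFATC2 CUT&Tag-seq regions at promoters in murine cardiac fibroblasts. They were the regions of the NFATC2 table whose deposited annotation begins with the word promoter, which covers sites up to 3 kb from an annotated transcription start site. There were 11663 of them among 68767 NFATC2 regions, or 17.0% (95% exact binomial interval 16.7 to 17.2), and the 6 region tables that were read held 805775 regions in all. Of the 11663, 6603 lay within 1 kb of a start site, 2697 lay 1 to 2 kb away and 2363 lay 2 to 3 kb away. The cells were primary fibroblasts from mouse heart, and both NFATC2 libraries came from cells given TGF-β, the cytokine that drives fibroblasts toward myofibroblasts. The TGF library is the reference, and the siHK1 library came from cells that were also transfected with small interfering RNA against hexokinase 1 (HK1), the first enzyme of glycolysis. JUN, SMAD3 and the histone mark H3K9lc (lactylated lysine 9 of histone H3) were profiled in the same pair of conditions. Each condition had 1 library per antibody, so no difference between conditions could be tested against replicate spread, and HK1 expression was not measured in these data. The labels give neither strain nor age nor the number of animals behind a library. Because each library pooled many cells, fewer cells with a bound site and less binding per cell cannot be told apart.

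NFATC2 belongs to the nuclear factor of activated T cells family. These factors stay in the cytoplasm while phosphorylated, and calcineurin, a phosphatase switched on by calcium and calmodulin, removes the phosphates so that they enter the nucleus. There they bind short sites with the core GGAAA, often next to AP-1, the JUN and FOS dimer, while SMAD3 carries the TGF-β signal. A promoter is the stretch around a start site where the transcription machinery assembles, and many mammalian promoters lie in CpG islands rich in GC boxes (GGGCGG).

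The following 9 examples show the range of sequence under these regions, each as the central 200 bases of the region in RefSeq's GRCm38.p6 on the strand of the gene. Capitals mark matches on either strand to TGGAAA or AGGAAA (NFAT letters), TGANTCA (AP-1 letters) and GGGCGG (GC box). The first 4 are shown because they hold NFAT letters. Ltbp3 encodes a protein that stores latent TGF-β in the matrix, and its promoter region holds AP-1 letters and NFAT letters with 1 base between them. Ccl2 encodes a chemokine that recruits monocytes, Col1a2 a chain of type I collagen, and Cdk4 a kinase of the G1 phase.
Ltbp3 (chr19:5743691-5743890, plus strand): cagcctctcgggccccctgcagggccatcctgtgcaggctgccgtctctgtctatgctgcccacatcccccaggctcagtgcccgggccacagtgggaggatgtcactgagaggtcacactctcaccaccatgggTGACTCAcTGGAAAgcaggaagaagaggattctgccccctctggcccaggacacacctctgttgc
Ccl2 (chr11:82033052-82033251, plus strand): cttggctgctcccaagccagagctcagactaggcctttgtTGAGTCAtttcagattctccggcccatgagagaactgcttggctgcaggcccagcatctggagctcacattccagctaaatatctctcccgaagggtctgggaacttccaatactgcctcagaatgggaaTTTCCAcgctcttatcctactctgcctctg
Col1a2 (chr6:4521045-4521244, plus strand): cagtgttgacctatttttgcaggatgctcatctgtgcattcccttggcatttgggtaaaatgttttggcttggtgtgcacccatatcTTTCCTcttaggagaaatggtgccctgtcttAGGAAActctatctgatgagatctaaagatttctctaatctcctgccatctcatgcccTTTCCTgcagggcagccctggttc
Cdk4 (chr10:127063061-127063260, plus strand): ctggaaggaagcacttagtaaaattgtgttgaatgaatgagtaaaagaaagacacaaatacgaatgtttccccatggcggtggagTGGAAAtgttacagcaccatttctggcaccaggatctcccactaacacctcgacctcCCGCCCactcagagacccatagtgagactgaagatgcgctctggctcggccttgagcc

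The next 5 are shown because the results turn on them although they lack NFAT and AP-1 letters in this window. Smad6 encodes an inhibitory SMAD, and Gsk3b encodes a kinase that returns NFAT proteins to the cytoplasm. Acta2 encodes smooth muscle α-actin, the standard myofibroblast marker. Cacybp encodes a calcyclin-binding protein, and its loss of reads in siHK1 was, with an equal one at Lrrc1, the largest among regions of high level. Zdhhc12, a palmitoyltransferase gene, had the largest gain among them.
Smad6 (chr9:64022493-64022692, minus strand): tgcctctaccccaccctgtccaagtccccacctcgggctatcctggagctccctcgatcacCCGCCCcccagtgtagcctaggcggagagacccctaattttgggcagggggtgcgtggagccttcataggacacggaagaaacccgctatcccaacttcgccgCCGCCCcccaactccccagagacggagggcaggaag
Gsk3b (chr16:38088673-38088872, plus strand): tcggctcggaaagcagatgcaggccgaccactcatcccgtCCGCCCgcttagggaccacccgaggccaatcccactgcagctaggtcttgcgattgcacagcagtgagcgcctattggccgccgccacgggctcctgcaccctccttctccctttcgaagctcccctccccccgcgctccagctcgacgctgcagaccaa
Acta2 (chr19:34255642-34255841, minus strand): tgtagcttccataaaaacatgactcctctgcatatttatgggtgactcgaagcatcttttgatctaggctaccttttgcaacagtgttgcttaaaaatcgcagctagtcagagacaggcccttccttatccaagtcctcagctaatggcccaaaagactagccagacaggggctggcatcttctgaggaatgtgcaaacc
Cacybp (chr1:160213021-160213220, minus strand): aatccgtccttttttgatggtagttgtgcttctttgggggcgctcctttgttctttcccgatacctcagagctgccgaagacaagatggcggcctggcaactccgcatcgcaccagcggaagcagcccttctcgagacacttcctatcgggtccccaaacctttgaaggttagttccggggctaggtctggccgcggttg
Zdhhc12 (chr2:30093717-30093916, minus strand): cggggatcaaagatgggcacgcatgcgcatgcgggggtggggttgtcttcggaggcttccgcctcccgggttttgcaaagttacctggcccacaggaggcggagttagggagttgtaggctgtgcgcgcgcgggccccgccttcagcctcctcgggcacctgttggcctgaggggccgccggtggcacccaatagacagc

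The Ltbp3 region held 25 NFATC2 reads in TGF and 14 in siHK1 and was called a peak in both libraries. The Ccl2 window, 2276 bp before the start site, had 9 and 4 reads, Col1a2 had 7 and 3, and Cdk4 had 17 and 13. At Smad6 35 and 14 reads were counted, at Gsk3b 23 and 14, at Acta2 6 and 1, at Cacybp 17 and 1, and at Zdhhc12 2 and 19. Windows with and without NFAT letters both occurred at deep and at shallow regions.

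Most NFATC2 promoter regions were shallow. The 11663 regions held 84012 reads in TGF and 52482 in siHK1 over 3687.5 kb, or 22.8 and 14.2 reads per kb, against 29.8 and 18.3 per kb in NFATC2 regions elsewhere. The median promoter region held 4 and 3 reads and the median region elsewhere 3 and 2. In 72.2% of them the libraries held 9 or fewer reads together, against 81.9% of all NFATC2 regions. The JUN promoter regions, by contrast, had medians of 33 and 18 reads. Regions within 1 kb were the deepest, with medians of 4 and 3 reads and a median width of 273 bp, whereas regions 1 to 2 kb and 2 to 3 kb away had medians of 3 and 2 reads and widths of 254 and 256 bp. The siHK1 library supplied 38.5% of the reads at promoters and 38.1% over all NFATC2 regions, which describes depth and not binding.

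The regions gathered at start sites. In 2274 of the 6603 regions within 1 kb (34.4%) the start site lay inside the region, and the midpoint of 26.0% of all promoter regions (25.2 to 26.8) fell within 250 bp of the start. For SMAD3 promoter regions this share was 29.1% and for JUN 39.8%, and neither interval reached that of NFATC2. Upstream and downstream midpoints were nearly balanced at 46.9% and 53.0%. In bins of 100 bp the first bin downstream held the most NFATC2 regions (6.43%), and the last bin before the start site held 4.59%, fewer than the next bin upstream with 5.02%. Median reads per region, both libraries together, were 8 in the first downstream bin and 9 in the last upstream bin.

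**Figure D1:**
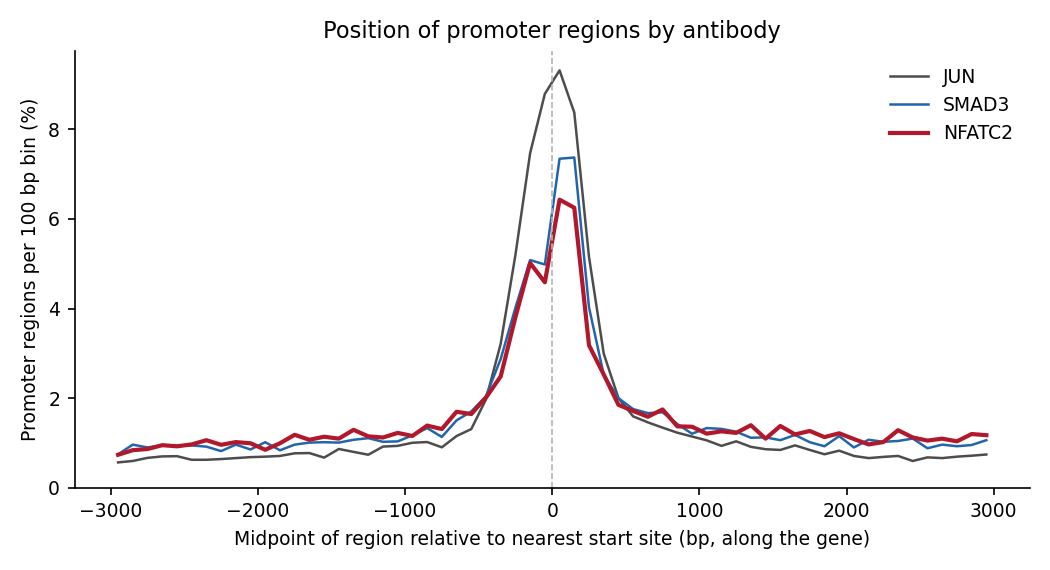
Share of promoter regions of each antibody (vertical axis, percent per 100 bp bin) by the distance of the region's midpoint from the nearest start site (horizontal axis, bp, negative upstream); lines are NFATC2 (red), SMAD3 (blue) and JUN (grey). The NFATC2 line peaks at 6.43% just downstream of the start site, below the JUN line.

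Sequence composition separated the near class from the other classes. A CpG-rich centre (at least 50% G and C with a CpG ratio of at least 0.6 of that expected from the bases) was present in 33.6% of regions within 1 kb, but in 2.08% and 1.78% of regions 1 to 2 kb and 2 to 3 kb away and in 1.15% of NFATC2 regions elsewhere. Soft-masked repeats covered at least 50% of the region in 5.54% of the near class, 15.2% and 19.3% of the farther classes, and 26.0% of regions elsewhere. Among regions within 1 kb, the 2218 CpG-rich ones had medians of 7 and 4 reads and the 4385 others 3 and 3. A start site lay inside 63.9% of the CpG-rich regions and inside 19.5% of the others.

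Few promoter regions were called in both conditions. Nearly every region carried a peak mark of at least 1 library, and 5028 were called in TGF only, 5920 in siHK1 only, 670 in both and 45 in neither. The share called in both was 5.74% (5.33 to 6.18), against 3.61% of all NFATC2 regions and 3.17% of those elsewhere. It was 7.31% within 1 kb and 3.56% and 3.85% in the farther classes. It was 13.1% for CpG-rich regions within 1 kb and 4.38% for the other regions of that class. For SMAD3 promoter regions the share called in both was 7.31% and for JUN 50.2%.

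Recurrence went with overlap by the other antibodies. Of the NFATC2 promoter regions, 36.2% shared at least 1 base with a JUN region, 20.6% with a SMAD3 region and 5.92% with an H3K9lc region. Within 1 kb the JUN share was 50.4%, against 17.5% and 17.7% in the farther classes and 12.7% elsewhere. The SMAD3 shares were 27.1%, 11.9%, 12.1% and 10.6% in the same order. For H3K9lc they were 6.85%, 4.15%, 5.33% and 7.51%, so the near class was again the highest of the promoter classes, but regions elsewhere were higher still. Read from the other side, an NFATC2 promoter region was met by 21.7% of JUN promoter regions, 21.3% of SMAD3 promoter regions and 13.3% of H3K9lc promoter regions.

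The 1952 regions that met both a JUN and a SMAD3 region had medians of 10 and 6 reads, and 22.8% (21 to 24.7) were called in both NFATC2 libraries. With JUN alone this share was 5.87%, with SMAD3 alone 7.83%, and for the 6997 regions with neither it was 0.815% (0.618 to 1.05). The 399 regions that met all 3 other antibodies reached 43.4% (38.4 to 48.4), with medians of 17 and 10 reads. Across regions, the read numbers of the libraries ran together where JUN and SMAD3 were both present (Spearman's rho 0.63, n = 1952) and against each other where neither was (rho -0.27, n = 6997). These points share their libraries and a call in either of them, so rho is a description only.

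**Figure D2:**
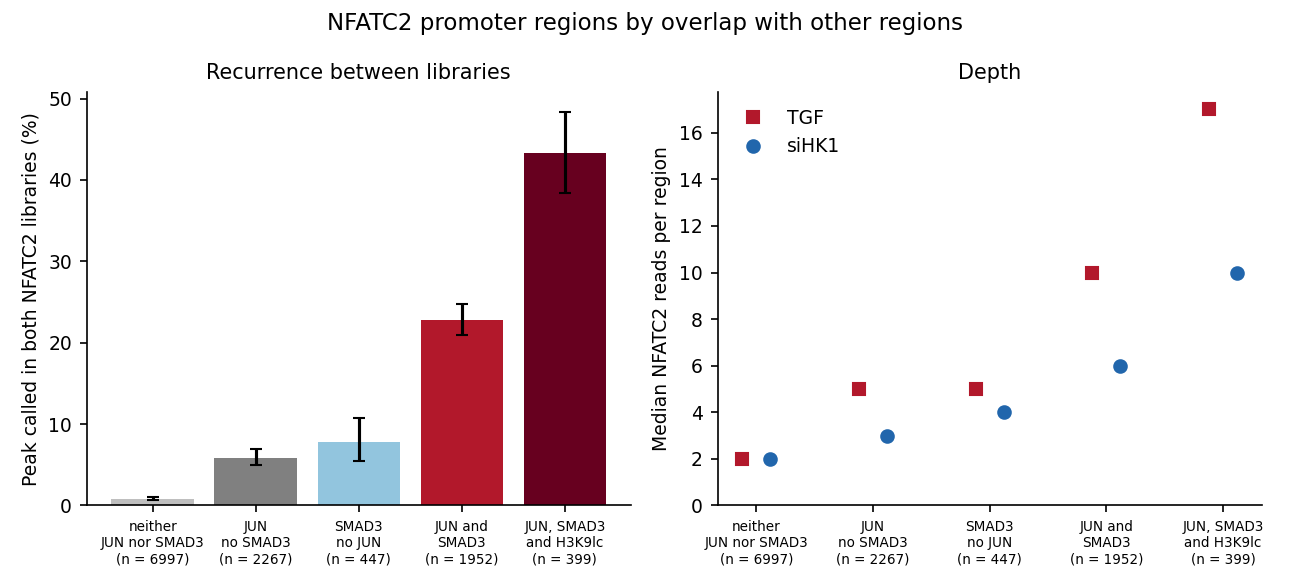
Left, share of NFATC2 promoter regions with a peak called in both libraries (bars, percent; whiskers, 95% exact binomial interval) by overlap with JUN, SMAD3 and H3K9lc regions. Right, median NFATC2 reads per region in TGF (squares) and siHK1 (circles). The share rises from left to right, from 0.815% with neither partner to 43.4% with all 3. The medians go from 2 reads to 17 and 10, with the same TGF median of 5 for JUN alone and SMAD3 alone.

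Regions with more overlap were deeper, and recurrence with and without a partner was not read at matched read numbers, so overlap and depth were not separated there. Only promoters and regions elsewhere were set side by side at matched read numbers. At 10 to 19 reads (both libraries together) 67.9% of 2143 NFATC2 promoter regions met a JUN region, against 34.2% of 6403 regions elsewhere. At 20 to 49 reads the JUN shares were 90.4% and 56.6%. At 50 reads or more they were 89.5% and 88.7%, and the intervals overlapped. SMAD3 shares were higher at promoters at 5 to 9 reads (12.2% against 6.28%) and at 10 to 19 reads (38.9% against 31.4%), and close at 20 to 49 reads (75.9% against 76.0%). The share called in both libraries was 0.869% at promoters and 0.584% elsewhere at 5 to 9 reads, and 8.45% and 6.72% at 10 to 19 reads. It hardly differed at 20 to 49 reads, 36.4% at promoters and 36.3% elsewhere, and at 50 reads or more it was lower at promoters, 64.0% against 76.5%. H3K9lc overlap was lower at promoters at 20 to 49 reads, 21.9% against 42.1%, and also at 50 reads or more, 63.4% against 87.5%. No library made with a control antibody was analysed here.

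**Figure D3:**
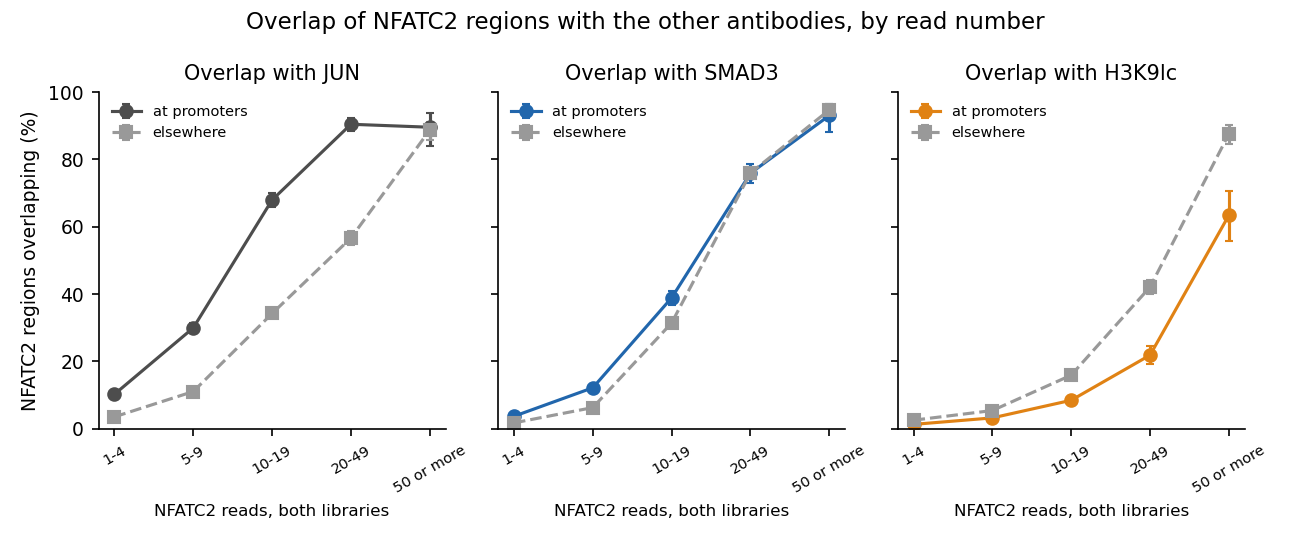
Share of NFATC2 regions overlapping a JUN, SMAD3 or H3K9lc region (vertical axis, percent; whiskers, 95% exact binomial interval) by the number of NFATC2 reads in both libraries (horizontal axis), at promoters (circles) and elsewhere (squares). At 20 to 49 reads JUN overlap is 90.4% at promoters and 56.6% elsewhere, and H3K9lc overlap is 21.9% and 42.1%.

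HK1 knockdown was compared with TGF as the log2 ratio of the deposited normalized values, siHK1 over TGF. Most promoter regions were listed through a peak in 1 library only (5028 in TGF, 5920 in siHK1). Large ratios in both directions were thus favoured by the listing, and the counts below are a description. The median over promoter regions was 0.23, with the middle 50% of regions between -0.97 and 1.39, and over all NFATC2 regions it was 0.36. By class it was 0.16 within 1 kb and 0.52 in both farther classes. At least a 2-fold higher value in siHK1 was found at 4089 promoter regions (35.1%), against 37.2% of all NFATC2 regions, and at least a 2-fold lower value at 2887 (24.8%), against 28.6%. Both shares were thus a little below those of all NFATC2 regions. At matched read numbers the higher share was above that of regions elsewhere, 34.7% against 30.5% at 5 to 9 reads and 17.7% against 15.2% at 10 to 19. The lower share stayed below that of regions elsewhere, 32.0% against 39.7% and 25.2% against 31.0%. The median at 5 to 9 reads was 0.08 at promoters and -0.27 elsewhere. Of the promoter regions past 2-fold, 58.6% were higher under the deposited scaling and 39.4% without any scaling of the libraries (2731 higher, 4209 lower). Leaving out the scaling moved the median of all NFATC2 regions from 0.36 to -0.29 and that of promoter regions to -0.36, so the sign of the median depended on the scaling.

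At so few reads the ratio takes a small number of values, and the large ratios sat at shallow regions. Among the 3811 promoter regions with 1 to 4 reads, 54.1% were at least 2-fold higher and 20.6% lower. Among the 929 regions with 20 to 49 reads these shares were 5.27% and 8.93% with a median ratio of -0.05. Regions elsewhere with 20 to 49 reads had 4.55% higher and 17.0% lower with a median of -0.22. Of the 172 promoter regions with 50 reads or more, 4 were at least 2-fold higher and 6 lower. Reads in TGF only were found at 1461 promoter regions, with at most 19 reads in a region, and reads in siHK1 only at 1401, with at most 11.

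**Figure D4:**
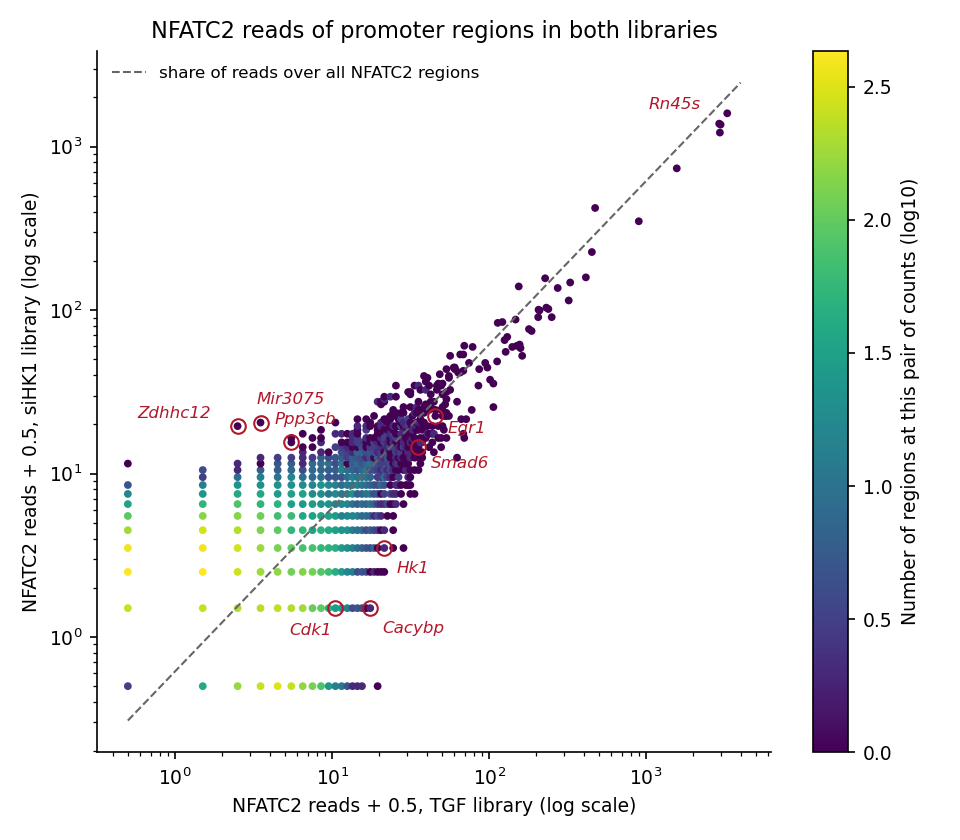
NFATC2 reads of each promoter region in the TGF library (horizontal axis) and the siHK1 library (vertical axis), both plus 0.5 on log scales; colour gives how many regions share a pair of counts, and the dashed line marks the 38.1% siHK1 share of reads over all NFATC2 regions. Most regions sit at a few reads, where the libraries scatter widely, and the 3 regions with the most TGF reads, at Rn45s, lie below the line with siHK1 shares of 29.2% to 32.7%.

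Where the other antibodies overlapped, their own ratios are given beside that of NFATC2. At the 4219 promoter regions that met a JUN region the NFATC2 median was -0.02 and the JUN median -0.02. At the 2399 that met a SMAD3 region the NFATC2 median was -0.02 and the SMAD3 median 0.68. At the 690 that met an H3K9lc region the medians were -0.17 for NFATC2 and -0.24 for H3K9lc. Each table was normalized on its own, so the medians of different antibodies are set side by side and not compared. Region by region the rho of the NFATC2 ratio was -0.11 with JUN, 0.03 with SMAD3 and -0.05 with H3K9lc, over the same numbers of regions. The NFATC2 medians there were 7 and 4, 9 and 6, and 11 and 6 reads in TGF and siHK1. Counting error at that depth pulls rho toward 0, so these values cannot show whether the ratios changed together.

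Among the deeper promoter regions (in the top level group when all NFATC2 regions were cut into 5), the largest losses in siHK1 were at Cacybp and Lrrc1, each with 17 reads in TGF and 1 in siHK1. Polr2a, the largest subunit of RNA polymerase II, followed with 16 and 1, and Ing2, a chromatin reader, and Ear4, a ribonuclease, each had 15 and 1, as did Cdkl3 and the long non-coding gene Bvht. A region with a 0 in 1 library has a low mean level and so was not ranked here, such as the Mpc1 region with 19 and 0 reads, named after its values were seen. The ranked losses had log2 ratios from -2.88 to -2.72, and all were of regions called in TGF only. JUN reads at Cacybp were 71 in TGF and 16 in siHK1 (log2 ratio -1.29), and at Polr2a 152 and 106 (0.35). The largest gains were at Zdhhc12 (2 and 19 reads) and at the microRNA gene Mir3075 (3 and 20). Myzap, a junction protein of heart muscle, and Ppp1r9b, a scaffold for protein phosphatase 1, each had 2 and 11. Uap1, an enzyme of amino sugar synthesis, had 2 and 10 and was 1 of 2 promoter regions with that pair of counts. At Zdhhc12 JUN reads went the other way, with 42 in TGF and 8 in siHK1 (-1.53). These regions were picked for their ratios, so their size is a description and not a result.

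Of 12 genes chosen from those that the study names, 7 had an NFATC2 promoter region, with 16 regions in all. At Hk1 itself, the gene targeted by the knockdown, the region over the start site (chr10:62340230-62340545) held 21 reads in TGF and 3 in siHK1. The log2 ratio was -1.95. It was called a peak in TGF only, so it was listed through the library in which it is high, and a low siHK1 value there was favoured by the listing. JUN reads at the same place were 112 and 90, a log2 ratio of 0.53 under the deposited scaling of the JUN table. The other 3 Hk1 regions, at other annotated start sites, had 7 and 1, 3 and 1, and 6 and 0 reads, so all 4 regions were lower in siHK1 and together held 37 and 5 reads. Of the 4, 3 were called in TGF only and 1 in siHK1 only. Of the 583 genes with at least 3 promoter regions, 35 had only lower regions, 75 only higher ones and 473 were mixed.

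Cdk1, the kinase that starts mitosis, had 10 reads in TGF and 1 in siHK1 at its start site (chr10:69352674-69353091, ratio -2.18), and 4 and 1 at a region inside the gene. The Acta2 start site region had 6 and 1 reads beside 208 and 61 JUN reads (JUN log2 ratio -0.88), and a second Acta2 region had 0 and 3. The collagen genes went different ways. Col1a1 had 9 and 2 reads at 2938 bp before a start site and 2 and 7 reads in a coding exon. Col1a2 had 7 and 3, 4 and 2, and 2 and 1 reads, and Col3a1 3 and 3, and 1 and 5. Smyd3, a histone methyltransferase, had 0 and 3 reads. Irf7, Postn, Lox, Axin2 and Slc40a1 had no NFATC2 promoter region. Of the 16 regions 4 were at least 2-fold higher and 7 lower (4 and 9 without scaling), or 25% and 43.8% against 37.2% and 28.6% of all NFATC2 regions. The median was -0.57 (-1.16 without scaling), and the study chose these genes with its own data in hand. Of the 16 regions 0 were called in both libraries. Each was listed through 1 library, and a higher value in that library was favoured by the listing, so these directions are a description.

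Of 34 genes for NFAT proteins, calcineurin, its regulators and calcium entry, 22 had a promoter region (64.7%), where 35.3% of all protein-coding genes in RefSeq had one. Of their 32 regions 16 were at least 2-fold higher and 7 lower (10 and 10 without scaling), or 50% and 21.9% against 37.2% and 28.6% of all NFATC2 regions. The medians were 3 and 3 reads, and 0 of the 32 were called in both libraries, beside 3.61% of all NFATC2 regions and 5.74% of all promoter regions. The region over the start site of Ppp3cb, a catalytic subunit of calcineurin, had 5 TGF reads against 15 siHK1 reads. It was called a peak in siHK1 only, the library in which it is high. Nfatc3, an NFAT protein, had 8 and 11. Calm3, a calmodulin gene, had 19 and 7, and Gsk3b 23 and 14 with a ratio of -0.02. Direction thus differed among members, with Ppp3cb at 2.09 and Calm3 at -0.71. Of 19 genes listed as NFAT targets, 6 had a promoter region, or 31.6%, with 4 of 7 regions higher and 2 lower (2 and 3 without scaling). Rcan1, the calcineurin inhibitor that NFAT itself induces, had 11 and 3 reads at 784 bp inside the gene beside 194 and 121 JUN reads (JUN log2 ratio 0.20). Ccl2 had 9 and 4, Nr4a1, an immediate early nuclear receptor, 3 and 5, and Nfatc1 2 and 3.

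In the TGF-β pathway 16 of 30 genes had a region (53.3%, beside the 35.3% of all protein-coding genes). Of their 30 regions 11 were at least 2-fold higher and 5 lower (8 and 9 without scaling), or 36.7% and 16.7%, beside 37.2% and 28.6% of all NFATC2 regions. Smad6 and Ltbp3 were the deepest, and both were called in both libraries. Ski, a repressor of SMAD proteins, had 17 and 6 reads, and Smad3 12 and 8 at 2938 bp before a start site. For genes of myofibroblasts and matrix 23 of 39 had a region (59.0%), with 16 of 37 regions at least 2-fold higher (43.2%) and 9 lower (24.3%), beside the same background, and 12 and 14 without scaling. Sparc, a matrix glycoprotein, had 10 and 14 reads. Vcl, which links actin to adhesions, had 11 and 4, Eln, the elastin gene, 10 and 3, and Loxl1, which cross-links elastin, 9 and 4. Of those 4, the ratio was above 0 at Sparc (1.10) and below 0 at the others (-0.96 to -0.45).

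Of 23 AP-1 and immediate early genes 17 had a region (73.9%, 51.6 to 89.8), beside the 35.3% of all protein-coding genes. Egr1, an immediate early zinc finger factor, had 45 and 22 NFATC2 reads, Mafk, a small MAF protein, 29 and 16, Junb 22 and 15, and Jund 11 and 9. Their ratios lay between -0.30 and 0.36. Of the 24 regions of this list 16 met a JUN region, beside 36.2% of all promoter regions, and these 4, among the deepest of the list, were in that number. Over the list 7 of 24 regions were at least 2-fold higher (29.2%, beside 37.2% of all NFATC2 regions) and 1 lower (4.17%, beside 28.6%), and 4 and 4 without scaling. In glycolysis and lactate handling 16 of 22 genes had a region (72.7%, 49.8 to 89.3). Here 5 of 28 regions were higher (17.9%) and 10 lower (35.7%), and 2 and 14 without scaling. All NFATC2 regions had 37.2% and 28.6%, and all promoter regions 35.1% and 24.8%. The median was -0.32, against 0.36 for all NFATC2 regions and 0.23 for all promoter regions. Aldoa, the aldolase of muscle, had 28 and 14 reads. Eno1, an enolase, had 23 and 11, Pgam1, a phosphoglycerate mutase, 16 and 10, and Gapdh 25 and 7 (21.9% in siHK1). The 4 Hk1 regions belong to this list.

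Among 27 cell cycle genes 11 had a region (40.7%, beside the 35.3% of all protein-coding genes). Of their 16 regions 3 were higher (18.8%) and 6 lower (37.5%), beside 37.2% and 28.6% of all NFATC2 regions, and 3 and 8 without scaling. Cdk4 (17 and 13 reads) and Pcna, the replication clamp (16 and 12), were near even, whereas a Ccnd3 region had 9 and 2. Of 67 histone genes 12 had a region, led by H3c14 with 30 and 14 reads, and of 84 ribosomal protein genes 24 did, led by Rpl13a with 27 and 15. These shares were 17.9% and 28.6%, beside 35.3% of all protein-coding genes. Histone gene regions had a median of -0.66, and 3 of 14 were higher (21.4%) and 5 lower (35.7%), or 3 and 10 without scaling. Ribosomal protein gene regions had a median of 0.33, which turned to -0.29 without scaling, and 9 of 28 were higher (32.1%) and 1 lower (3.57%), or 5 and 4 without scaling, where all NFATC2 regions had 37.2% and 28.6%. Of 24 interferon genes 8 had a region (33.3%, close to the 35.3%), with 7 of 12 regions higher (58.3%) and 0 lower, and 4 and 1 without scaling, again beside 37.2% and 28.6%. Irf1 had 4 and 8 reads and Bst2 3 and 4. The deepest interferon region, at Oasl1, had 186 and 74 reads, lay 53.0% in repeats and met H3K9lc with 643 and 437 reads.

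Regions were also found at genes of other cell types. Of fibroblast marker genes 7 of 11 had a promoter region, led by Vim with 14 and 6 reads. Of cardiomyocyte markers 5 of 7 had one, including Myh6, the α-myosin heavy chain of heart muscle, with 20 and 6 reads and 84 and 38 JUN reads (JUN log2 ratio -0.30). Endothelial markers had 2 of 6 (Pecam1, 9 and 4 reads, and Vwf, 5 and 2), macrophage markers 1 of 6 (Cd68, 4 and 0) and mural cell markers 0 of 5. Olfactory and vomeronasal receptor genes, which fibroblasts do not normally use, had a promoter region at 177 of 1459 (12.1%, 10.5 to 13.9), with medians of 3 and 2 reads. JUN met 4 of their 186 regions, beside 36.2% of all promoter regions. Over all protein-coding genes in RefSeq the share was 35.3% (7727 of 21896). A region at a promoter does not measure whether the gene is used, and the part of other cells in the cultures was not tested.

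Over all read numbers together, NFAT letters were less frequent at the promoter regions than in NFATC2 regions elsewhere. TGGAAA or AGGAAA was found in the central 200 bases of 29.2% of promoter regions, 33.6% of NFATC2 regions elsewhere and 30.3% of 32851 RefSeq promoter windows of the same length (150 bases before to 50 after the start). By class the shares were 27.6%, 31.1% and 31.2%. CpG-rich regions within 1 kb had 17.0% and the others of that class 33.0%. Promoters were lower than regions elsewhere at 5 to 9 reads (30.2% against 33.4%). They were higher at 10 to 19 reads (23.7% against 22.7%) and at 20 to 49 reads (20.3% against 12.7%). In the 670 regions called in both libraries the share was 20.7%, without matching for base composition or depth. Within 1 kb the share of NFATC2 regions (27.6%) was slightly above that of JUN regions (25.8%), and its interval overlapped that of SMAD3 regions (26.6%). In the farther classes the NFATC2 shares of 31.1% and 31.2% lay below the JUN shares of 34.3% and 33.4%, with overlapping intervals. Regions with NFAT letters had medians of 3 and 2 reads, those without 4 and 3, and 4.09% and 6.43% of them were called in both libraries.

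AP-1 letters (TGANTCA) were found in 5.57% of the promoter regions, 6.86% of regions elsewhere and 5.35% of RefSeq promoters. Promoter regions that met a JUN region held them in 7.68% of cases and the others in 4.38%. JUN regions themselves held them in 12% within 1 kb and 29.8% at 1 to 2 kb. NFAT core and AP-1 letters within 20 bases of each other (GGAAA and TGANTCA, either order and strand) were found at 87 promoter regions (0.746%), against 0.916% of regions elsewhere and 0.731% of RefSeq promoters. Of the 87, 49.4% met a JUN region, near the 49.8% of all promoter regions with AP-1 letters, and 5 were called in both libraries. Besides Ltbp3 these 5 included Gramd4 (15 and 13 reads), Smg6 (13 and 9) and Ctsb (13 and 6), named after their values were seen. The GC box was present in 25.4% of regions within 1 kb and 2.20% of NFATC2 regions elsewhere, against 32.2% of RefSeq promoters, and in 35.4% of the regions called in both libraries. CAGAC, letters bound by SMAD proteins, was found in 40.6% of the promoter regions and 37.8% elsewhere. A match is a description of letters, and its absence says nothing about the factor.

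**Figure D5:**
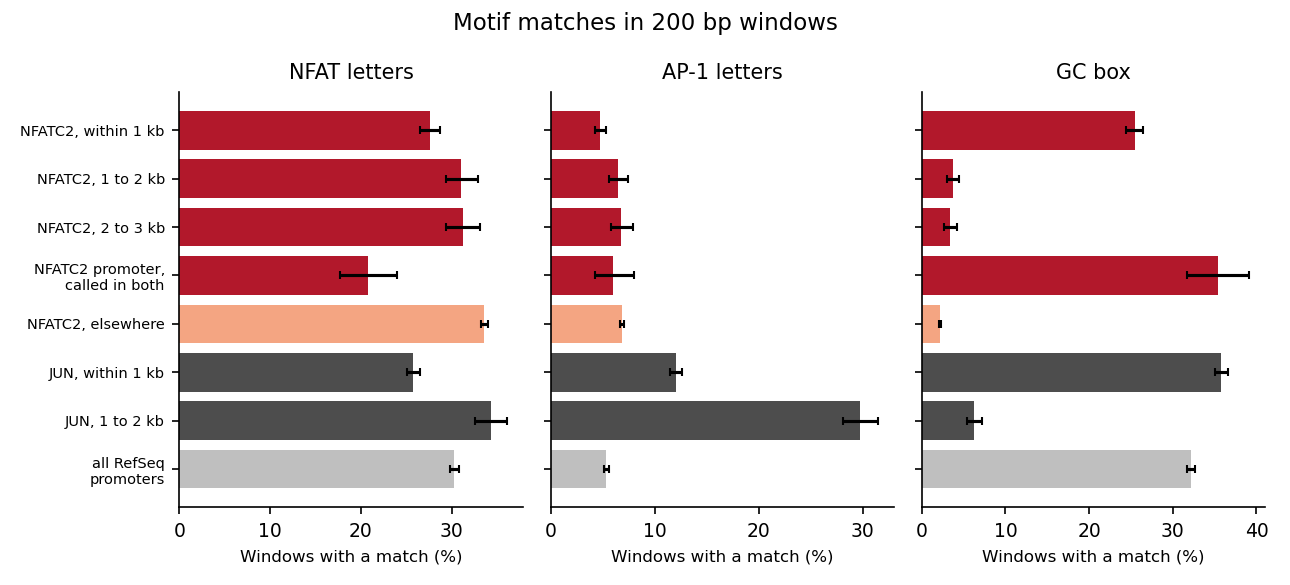
Share of 200 bp windows (horizontal axis, percent; whiskers, 95% exact binomial interval) with NFAT letters (TGGAAA or AGGAAA), AP-1 letters (TGANTCA) or a GC box (GGGCGG) in NFATC2 regions, JUN regions and RefSeq promoters. NFAT letters reach 20.7% in NFATC2 promoter regions called in both libraries and 30.3% in all RefSeq promoters, while the GC box reaches 35.4% and 32.2%.

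A small number of regions carried much of the signal. The 37 promoter regions with at least 100 TGF reads held 24.9% of all TGF reads at promoters. Of these, 15 were assigned to Sfi1, 4 to the Pisd pseudogenes, 3 to the ribosomal RNA precursor Rn45s and 3 to Mir101c. An H3K9lc region was met by 32 of the 37, beside 5.92% of all promoter regions. The 3 Rn45s regions alone held 9222 TGF reads, and 1 of them had 3288 reads in TGF and 1599 in siHK1 beside 3003 and 1823 JUN reads. Genes of this kind exist in near-identical copies, so the counts there cannot be given to 1 locus. Without the 37 regions the siHK1 share of promoter reads was 40.4%. Outside these, regions of high level that were called in both libraries and met JUN and SMAD3 included Pdlim7 (55 and 38 reads), Garnl3 (63 and 41) and Rab40c (55 and 39), named after their values were seen.

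The promoter regions were spread over 8479 genes, of which 6127 had 1 region, 1769 had 2 and 583 had 3 or more. Sfi1 had the most with 16. Tns1, which ties actin to adhesions, had 10 with 67 and 62 reads in all, and Plec, a cytoskeletal linker, had 8 with 140 and 126 reads, 7 of them above 0 in ratio. At the limit of the class, 2999 bp from a start site, lay regions at Tm2d2 (2 and 5 reads), Fanca (5 and 0) and Smok2a (3 and 2). Just outside, at 3001 bp, lay regions at Msmb (4 and 1) and Brap (0 and 3), with read numbers in the same range.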

How the data were processed

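CUT&Tag-seq was performed by the authors with antibodies to NFATC2, JUN, SMAD3 and H3K9lc on murine cardiac fibroblasts, with 1 library per antibody and condition; groups were taken from the sample titles, where siHK1 appears as SIHK1 or SI. The deposited tables give for each region the read counts of both libraries, peak marks of each library, and normalized log2 values that the authors computed. In the NFATC2 table those log2 values were a straight line in log2(count + 0.5), with slope 0.960 and intercept -0.49 for TGF and slope 1 for siHK1. The tables' own fold changes, p-values and change calls were not used. The methods name Bowtie2 and MACS2 with GRCm39, whereas the submitters' processing notes name BWA 0.7.12 and mm10. Of 10871 transcripts named for the promoter regions, 10773 were found in GENCODE M21 (GRCm38), 100% at the same coordinates, so coordinates are GRCm38. NFATC2 depth was 575706 counted reads in TGF and 354599 in siHK1; read duplicates and the spike-in correction are not given in the sources used here, and intervals cover counting error only.

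Here the log2 ratio was the difference of the deposited log2 values, overlap needed 1 shared base, and motifs were searched on both strands of RefSeq's GRCm38.p6. NFAT and AP-1 letters were searched separately and may overlap. Shares were given exact (Clopper-Pearson) intervals with Python 3.11.15, pandas 2.3.3 and scipy 1.17.1, and scripts were tested on simulated data. The simulated check of fold counts used deeper regions than most of those described here, so it does not cover their depth. The library titled TGF without antibody and the untreated H3K9lc library were not used, nor was 1 column that matched no sample. Named were 12 genes chosen from those the study names, the regions of highest level, the 5 largest gains and losses in the top level group, up to 4 regions per gene list, regions with all antibodies and those next to the 3 kb limit. The members and gene lists were chosen with earlier results of these data known. Alternatives tried were another scaling, pseudocounts, a read minimum, length weighting, other overlap and motif windows, and, chosen after seeing the data, leaving out repeat-rich regions and keeping only regions with JUN.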

Additional observations from a re-analysis of the deposited data

How the results depend on the processing

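No paired analysis was possible because there was 1 library per antibody and condition, and no replicate could be left out. Of 42 alternatives, 13 stayed within the error of the reported value or within 1.5 times the reported count, 27 moved and 2 reversed. The median log2 ratio at promoters (0.23) turned to -0.36 without scaling and to -0.020 for regions with JUN (chosen after seeing the data), and moved to 0.080 above the median level, 0.077 for regions called in both libraries and 0.16 within 1 kb. The share of NFATC2 regions at promoters was 9.60% within 1 kb only, 18.3% by length, 21.4% with at least 5 reads in either library and 19.8% without regions at least 50% in repeats. The share called in both libraries was 6.67% for regions of at least 200 bp and 11% with at least 5 reads. Regions at least 2-fold lower numbered 1433 above the median level, 1399 at 4-fold and 1564 within 1 kb, and those higher 1885, 2036 and 2123. JUN, SMAD3 and H3K9lc overlap fell to 31.6%, 15% and 4.13% when 50% of the region had to be covered, and were 55.7%, 34.8% and 9.97% with at least 5 reads. Without repeat-rich regions JUN overlap was 38.6% and H3K9lc overlap 5.42%. NFAT letters were in 15.9% of central 100 bp windows and 38.4% of whole regions, and AP-1 letters in 2.66% and 9.08%. With 72.2% of promoter regions at 9 or fewer reads, depth limits every ratio between the libraries.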
